A study of Homo sapiens with 9 samples.

Results

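Small nucleolar RNA (snoRNA) host genes are genes whose introns carry the sequences of snoRNAs. Here the group is the SNHG series, every gene symbol made of SNHG and a number except SNHG14, together with GAS5, ZFAS1, EPB41L4A-AS1, DANCR and TAF1D. The rule used symbols only and no measured value, but it was chosen with earlier results of these data known. It matched 32 genes of the 60605 in the count files, of which 31 are annotated as long non-coding RNAs and TAF1D as protein-coding. Of the 32, 30 passed the filter on low counts that left 20655 genes for testing, and SNHG28 and SNHG18 did not.

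The cells were KG-1a, a line from acute myeloid leukaemia, and RNA was sequenced from 3 groups of 3 libraries. These were PRMT2 knockout clone 1 (KO clone 1), PRMT2 knockout clone 2 (KO clone 2) and wild-type cells (WT), the knockouts having been made by CRISPR/Cas9 editing. PRMT2 encodes a protein arginine methyltransferase. All cells grew without drug in RPMI 1640 with 20% fetal bovine serum, and each knockout line is 1 clone. The labels do not say whether replicates were separate cultures or whether the WT cells were cloned, so the p-values cover the spread between libraries, which may be technical, and a difference seen in 1 clone cannot be told apart from a property of that clone.

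After splicing, the intron that carries a snoRNA is opened and trimmed, and the snoRNA is bound by its core proteins. Box C/D snoRNAs guide 2′-O-methylation of ribosomal RNA and box H/ACA snoRNAs guide pseudouridylation, while the related scaRNAs act on spliceosomal RNAs in Cajal bodies. The spliced RNA left behind by a non-coding host often has little coding capacity, and several such RNAs, GAS5 among them, are known targets of nonsense-mediated decay. Many hosts begin with a terminal oligopyrimidine (TOP) tract, a C followed by further pyrimidines at the first transcribed base, which ribosomal protein genes share. Several members, among them GAS5, SNHG1 and DANCR, are widely studied as long non-coding RNAs in cancer cells.

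The sequence elements that give the group its name are shown first, for 4 snoRNAs that lie in members described below. They were read from GRCh38. The capitals mark TGATGA (box C) within the first 20 bases and CTGA (box D) within the last 20 bases of box C/D snoRNAs, and the ACA that stands 3 bases before the end of box H/ACA snoRNAs. SNORD93 lies in SNHG26 at chr7:22856613-22856686, SNORD12C in ZFAS1 at chr20:49278940-49279028, SNORA26 in DANCR at chr4:52713249-52713370 and SNORA73B in SNHG3 at chr1:28508559-28508762, all on the plus strand.
SNORD93: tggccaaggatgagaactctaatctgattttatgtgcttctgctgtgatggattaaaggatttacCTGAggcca
SNORD12C: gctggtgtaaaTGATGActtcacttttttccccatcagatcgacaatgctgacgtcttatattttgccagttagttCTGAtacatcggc
SNORA26: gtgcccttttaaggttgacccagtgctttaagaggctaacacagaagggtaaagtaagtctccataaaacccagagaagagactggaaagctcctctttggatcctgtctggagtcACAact
SNORA73B: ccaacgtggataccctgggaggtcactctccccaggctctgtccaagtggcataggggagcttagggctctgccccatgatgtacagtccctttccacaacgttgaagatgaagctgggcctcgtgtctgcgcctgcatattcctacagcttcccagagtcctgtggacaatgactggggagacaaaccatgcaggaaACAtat
In SNORD93 the search found the D box only. Searched on the snoRNA's own strand, both C/D letters were found in 20 of the 28 SNORD genes inside members and in 196 of all 313 annotated SNORD genes (62.6%). The ACA was found in 19 of the 32 SNORA genes inside members and in 142 of all 214 (66.4%).

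Transcription starts were taken from RefSeq (GRCh38.p14), which lists 28 of the 32 members. The windows below hold 10 bases before the start and 20 bases from it, on the gene's own strand. Capitals mark an unbroken run of C and T that begins with C at the first transcribed base and has at least 5 letters. The first 6 genes are non-coding members with such a run. The other 5 rose in both clones and have none in this window, which for GAS5 lies outside its annotated span.
SNHG4: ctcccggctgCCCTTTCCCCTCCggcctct
SNHG12: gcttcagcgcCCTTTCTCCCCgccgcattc
SNHG32: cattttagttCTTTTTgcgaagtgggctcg
SNHG19: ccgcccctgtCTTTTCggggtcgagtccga
SNHG5: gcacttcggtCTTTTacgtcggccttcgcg
ZFAS1: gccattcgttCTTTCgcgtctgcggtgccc
DANCR: tgcgcgccccgcccttgcccagagtcttcc
GAS5: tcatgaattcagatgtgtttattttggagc
SNHG17: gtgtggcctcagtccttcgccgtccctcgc
SNHG26: taaacttgatctccgcagtgccctcccttt
SNHG7: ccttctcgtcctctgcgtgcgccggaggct
With TAF1D and SNHG18, 8 of 28 members (28.6%) had this run, against 1429 of 35116 promoters in the table (4.07%). The run is a description of these letters at 1 listed start per gene. Of the 7 members that rose in both clones, 6 are in the table and only SNHG4 among them had the run at its listed start. SNHG26 and SNHG7 also start with C, with runs of 4 letters that fall under the limit of 5. The GAS5 window runs from 173869026 to 173869055 on the minus strand. It lies wholly upstream of the gene's span in GENCODE, which ends at 173868882. Whether GAS5 has such a run at another start was not tested.

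The libraries held 28006342 to 43149410 counted read pairs. PRMT2 itself, the targeted gene, averaged 20.7 ± 0.544 CPM (counts of a gene per 1e6 counted pairs, the totals scaled by TMM; SD, n = 3) in KO clone 1 and 21.2 ± 0.153 CPM in KO clone 2, against 39.4 ± 0.393 CPM in WT. Its log2 fold change was -0.93 in KO clone 1 and -0.89 in KO clone 2. CD34, PTPRC, SPN and CD7, markers of this line, were present in all groups, and markers of mature monocytes, red cells, B cells, fibroblasts and hepatocytes (CD14, LYZ, HBA1, MS4A1, COL1A1, ALB) were at most 0.614 CPM in any library, with HBB at 0. KO clone 1 replicate 1 stood apart. Multimapping pairs made up 13.33% of it, against 3.86% to 4.51% of each other library, and the mitochondrial ribosomal RNAs were high, MT-RNR1 at 13440 CPM and MT-RNR2 at 13862 CPM, against at most 52.0 and 40.8 CPM elsewhere.

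Summed over the 32 members, KO clone 1 had 2158.7, 2224.9 and 2202.4 CPM, KO clone 2 had 2337.3, 2378.2 and 2388.5 CPM, and WT had 2146.1, 2108.6 and 2165.8 CPM. The KO clone 2 libraries lay above all others, and the KO clone 1 range overlapped that of WT. In all 9 libraries the group took 0.2106% to 0.2368% of counted pairs.

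**Figure D1:**
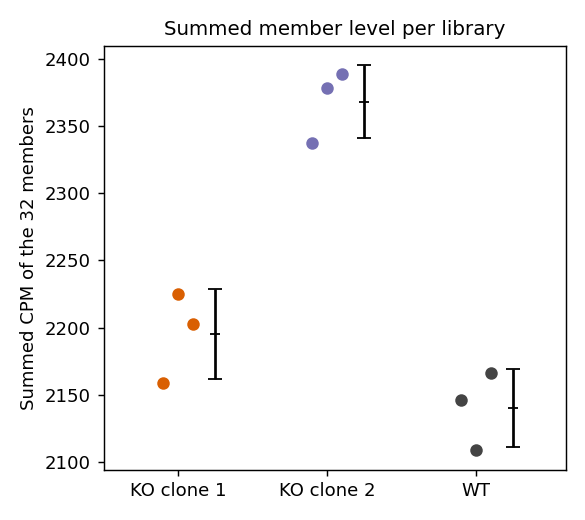
Summed level of the 32 members in CPM, 1 point per library, with the mean and SD of each group beside the points (the axis does not start at 0). The 3 KO clone 2 libraries sit at 2337.3 to 2388.5 CPM, above the KO clone 1 libraries (2158.7 to 2224.9) and the WT libraries (2108.6 to 2165.8).

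Among the 30 members tested, changes against WT were small and more often upward. With the clones averaged and set against WT, 10 members rose and 3 fell at a Benjamini-Hochberg adjusted p under 0.05 (edgeR, adjusted over all genes tested). Over all genes, 16.4% rose and 18.9% fell by the same rule. The risers were the 7 genes described next with SNHG29, SNHG11 and ZFAS1, and those that fell were SNHG5, SNHG16 and SNHG20. In fits of 2 groups, SNHG29 (adjusted p = 0.0733) and ZFAS1 (0.0905) no longer passed in this contrast, nor did any of the 3 that fell. In KO clone 1, 10 rose and 4 fell, against 17.4% and 18.8% of all genes. In KO clone 2, 11 rose and 1 fell, against 14.4% and 16.1%. Without KO clone 1 replicate 1, 9 members rose and 3 fell in KO clone 1, and 11 rose and 2 fell in the mean of the clones, where SNHG3 then passed (adjusted p = 0.0207, against 0.058 with all libraries) and SNHG20 did not (0.0688, against 0.0403). No member reached a log2 fold change of 1 together with that adjusted p in either clone, where 7.58% of all genes did in KO clone 1 and 5.96% in KO clone 2. The count past both limits was 0 for the mean of the clones (6.53% of all genes) and 0 for KO clone 2 over KO clone 1 (2.82%). Without the fold minimum, an unadjusted p under 0.05 was reached by 13 higher and 3 lower members in the mean of the clones. The median log2 fold change of the 30 was 0.10 in the mean of the clones and that of all genes was 0.0019. Member values ran from -0.40 to 0.30. The same median was 0.03 in KO clone 1 and 0.13 in KO clone 2. Of 3885 long non-coding genes tested, 439 rose and 488 fell in the mean of the clones. In bulk RNA a change in the share of cells that express a gene and a change in RNA per cell cannot be told apart.

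**Figure D2:**
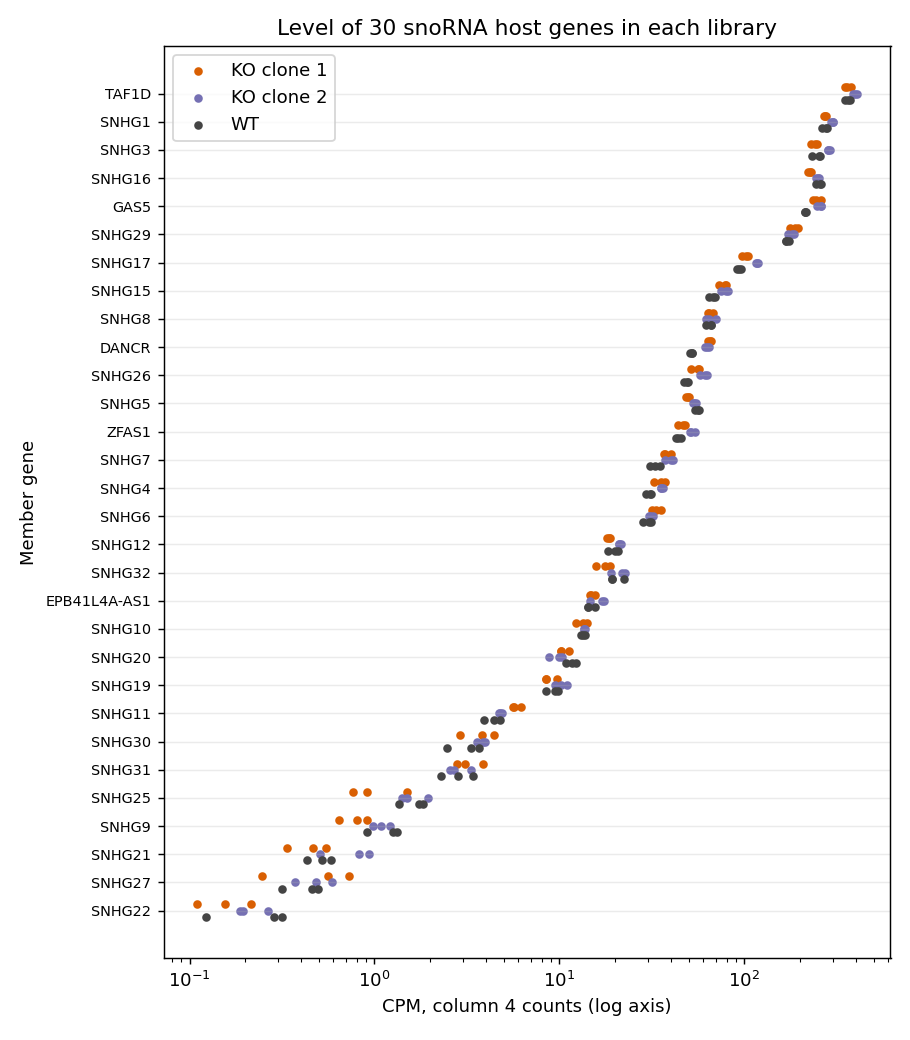
Level of the 30 tested members in each library, in CPM of sense-strand counts on a log axis, not divided by gene length. Groups are offset within each row. The library values of a member lie close together in nearly all rows, from TAF1D, with 349 to 408 CPM, down to SNHG22, with 0.11 to 0.317 CPM.

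The 7 members that rose in both clones were DANCR, SNHG26, SNHG7, GAS5, SNHG17, SNHG15 and SNHG4. They were 23.3% of the 30, where 8.52% of all genes rose in both clones. No member fell in both (11% of all genes), and none moved in opposite directions past the threshold (1.35%). The same 7 were the only members with all 6 knockout libraries above all 3 WT libraries, which held for 11.2% of all genes, and no member had all 6 below (13.7%). SNHG14, which the rule left out, was below WT in all 6 knockout libraries. It had log2 fold changes of -9.61 in KO clone 1 and -9.28 in KO clone 2.

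DANCR, a non-coding RNA first known for holding epidermal progenitors in an undifferentiated state and host of SNORA26, lies on chromosome 4. It had 63.2, 66.1 and 64.9 CPM in KO clone 1 and 64.2, 62.5 and 61.5 CPM in KO clone 2, against 51.9, 51.0 and 52.2 CPM in WT. The knockout libraries lay well above the WT libraries, and the 2 clones overlapped. In the mean of the clones DANCR was 1.23-fold WT, a log2 fold change of 0.30 (SE 0.035, adjusted p = 1.9e-09). It was 0.32 in KO clone 1 and 0.28 in KO clone 2.

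GAS5, named for its accumulation in growth-arrested cells, is a host of box C/D snoRNAs, 10 of which RefSeq places within its span. It had 234, 259 and 244 CPM in KO clone 1 and 248, 260 and 258 CPM in KO clone 2, against 213, 214 and 213 CPM in WT. The WT libraries were almost equal and every knockout library was above them. The log2 fold change in the mean of the clones was 0.23 (SE 0.0297, adjusted p = 2.26e-08), which is 1.17-fold.

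SNHG17, with 5 annotated snoRNA genes of the SNORA71 family, had 96.7, 102 and 105 CPM in KO clone 1 and 116, 119 and 118 CPM in KO clone 2, against 96.0, 93.9 and 90.8 CPM in WT. The 3 groups formed 3 steps that did not overlap, although the lowest KO clone 1 library was close to the highest WT library. Its log2 fold change was 0.11 in KO clone 1 (adjusted p = 0.0113) and 0.33 in KO clone 2 (adjusted p = 3.34e-10). KO clone 2 was above KO clone 1 by 0.21 (SE 0.0351, adjusted p = 6.01e-06).

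SNHG26, whose intron carries SNORD93, had 51.6, 55.9 and 56.9 CPM in KO clone 1 and 62.5, 60.8 and 57.3 CPM in KO clone 2, against 47.2, 49.4 and 49.2 CPM in WT. All knockout libraries were above WT, and KO clone 2 was the higher clone. Against WT it rose by 0.18 on the log2 scale in KO clone 1 (adjusted p = 0.00159) and 0.31 in KO clone 2 (adjusted p = 2.52e-07).

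SNHG15, host of SNORA9, had 73.3, 79.6 and 78.3 CPM in KO clone 1 and 74.6, 81.8 and 79.9 CPM in KO clone 2, against 67.8, 64.4 and 69.4 CPM in WT. The clones overlapped each other and not WT. The log2 fold change in the mean of the clones was 0.21 (SE 0.0361, adjusted p = 4.78e-06).

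SNHG7, host of SNORA17A and SNORA17B, had 37.2, 39.9 and 36.9 CPM in KO clone 1 and 37.4, 39.9 and 41.3 CPM in KO clone 2, against 34.9, 30.7 and 32.9 CPM in WT. Every knockout library was above WT, by little for the lowest. Its log2 fold change in the mean of the clones was 0.24 (SE 0.0464, adjusted p = 4.56e-05). SNHG4, host of SNORA74A and SNORA74D, had 32.4, 35.3 and 37.0 CPM in KO clone 1 and 35.3, 36.5 and 35.6 CPM in KO clone 2, against 30.8, 31.3 and 29.6 CPM in WT. Again no knockout library reached down into WT. SNHG4 rose by 0.21 in the mean of the clones (SE 0.046, adjusted p = 0.000266). It shares 626 exon bases on the same strand with MATR3, and read pairs there are assigned to neither gene.

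**Figure D3:**
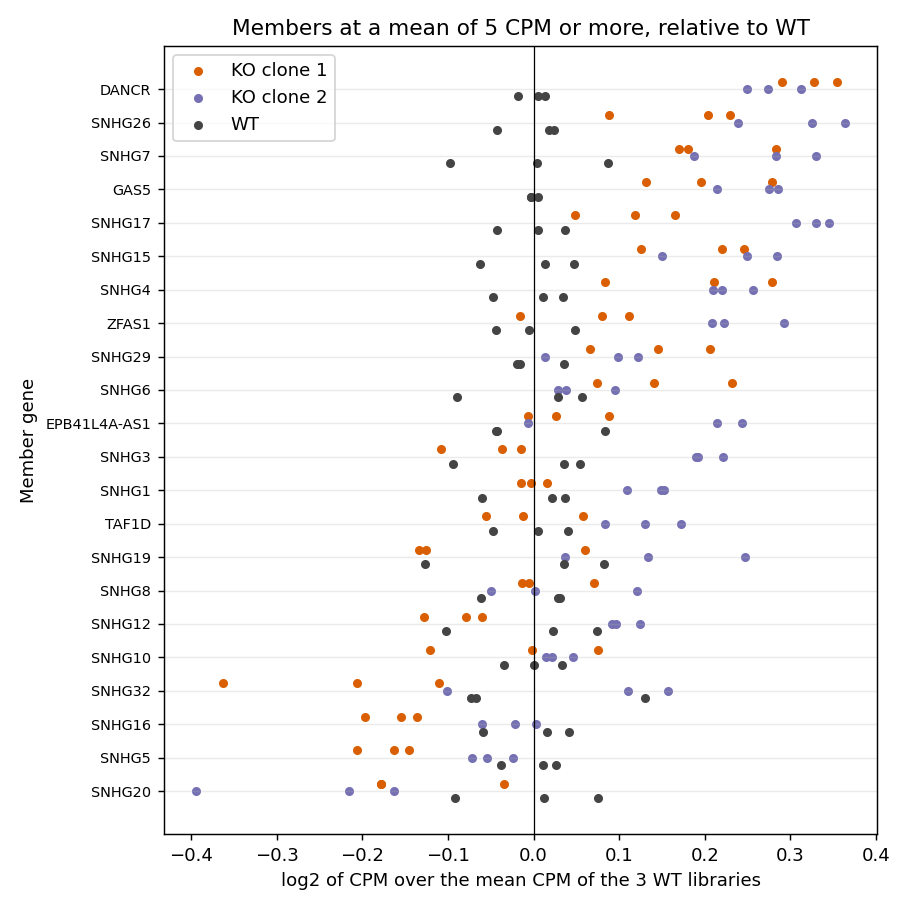
log2 of the CPM of each library over the mean CPM of the 3 WT libraries, for the 22 members at a mean of 5 CPM or more. In the top 7 rows (DANCR, SNHG26, SNHG7, GAS5, SNHG17, SNHG15 and SNHG4) all 6 knockout points lie right of all WT points.

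Of the 5 members with the most counts, GAS5 rose in both clones, TAF1D, SNHG1 and SNHG3 rose in KO clone 2 alone and SNHG16 fell in KO clone 1 alone, by the adjusted p. Divided by merged exon length, which includes annotated retained introns, SNHG1 had 70.8 CPM per kb over the 9 libraries, SNHG3 63.0, GAS5 48.3, TAF1D 46.9 and SNHG16 41.9, and all others were below 20. SNHG1 is the host of the SNORD22 and SNORD25 to SNORD31 cluster. It had 275, 270 and 272 CPM in KO clone 1 and 302, 294 and 303 CPM in KO clone 2. WT had 276, 261 and 279 CPM. KO clone 2 was the high group, and KO clone 1 lay within the WT range. The log2 fold change was 0.14 in KO clone 2 (adjusted p = 0.00128) and -0.00070 in KO clone 1.

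SNHG3, host of SNORA73A and SNORA73B, had 230, 246 and 242 CPM in KO clone 1 and 289, 283 and 283 CPM in KO clone 2, against 258, 233 and 254 CPM in WT. Every KO clone 2 library was above every other library. The log2 fold change was 0.20 in KO clone 2 (adjusted p = 1.51e-05) and -0.05 in KO clone 1 (adjusted p = 0.28). SNHG3 shares 242 exon bases on the same strand with RCC1.

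TAF1D, a subunit of the complex that brings RNA polymerase I to ribosomal DNA, is the protein-coding member and holds 8 annotated snoRNA genes. It had 377, 349 and 359 CPM in KO clone 1 and 384, 408 and 397 CPM in KO clone 2, against 351, 364 and 373 CPM in WT. KO clone 2 lay above both other groups. TAF1D rose by 0.13 in KO clone 2 (adjusted p = 0.00562), with -0.0028 in KO clone 1.

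ZFAS1, antisense to ZNFX1 and host of the SNORD12 family, had 43.6, 47.6 and 46.6 CPM in KO clone 1 and 54.0, 50.9 and 51.4 CPM in KO clone 2, against 45.5, 43.9 and 42.7 CPM in WT. KO clone 2 stood above the other 2 groups, which overlapped. It rose in KO clone 2 by 0.24 (adjusted p = 3.1e-05), with 0.06 in KO clone 1 (adjusted p = 0.337).

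Members past the threshold only in KO clone 1 were SNHG29, SNHG11 and SNHG6 on the upper side. SNHG29, host of SNORD49A, SNORD49B and SNORD65, had 177, 196 and 188 CPM in KO clone 1 and 171, 182 and 184 CPM in KO clone 2, against 168, 174 and 167 CPM in WT. The KO clone 1 libraries were above WT and the KO clone 2 libraries overlapped it. SNHG29 rose by 0.14 in KO clone 1 (adjusted p = 0.000802); the value was 0.08 in KO clone 2 (adjusted p = 0.0726), and the clones did not differ past the threshold (-0.06, adjusted p = 0.185). SNHG11 had 5.64, 5.68 and 6.23 CPM in KO clone 1 and 4.73, 4.88 and 4.77 CPM in KO clone 2, against 4.75, 4.41 and 3.91 CPM in WT, and rose by 0.42 in KO clone 1 (adjusted p = 0.00384). KO clone 2 was below KO clone 1 by a log2 difference of -0.29 (adjusted p = 0.0612). SNHG6, host of SNORD87, rose by 0.15 in KO clone 1 (adjusted p = 0.0302), with a difference between the clones of -0.10 (adjusted p = 0.22). Without KO clone 1 replicate 1, its highest library, the adjusted p was 0.18.

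On the lower side, SNHG16, SNHG5, SNHG32 and SNHG25 fell in KO clone 1. SNHG16, host of the SNORD1 family, had 220, 230 and 227 CPM in KO clone 1 and 249, 242 and 253 CPM in KO clone 2, against 255, 242 and 260 CPM in WT. KO clone 1 was the low group, and KO clone 2 overlapped WT. SNHG16 fell, with a log2 fold change of -0.16 in KO clone 1 (SE 0.0331, adjusted p = 0.000106). SNHG5, host of the SNORD50 family, had 48.2, 49.7 and 50.3 CPM in KO clone 1 and 54.7, 52.9 and 53.6 CPM in KO clone 2, against 54.1, 56.0 and 56.6 CPM in WT, with -0.17 in KO clone 1 (adjusted p = 0.00111). In KO clone 2 its log2 fold change was -0.05 (adjusted p = 0.412).

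SNHG32, host of SNORD48 and SNORD52, had 18.8, 15.8 and 17.6 CPM in KO clone 1 and 18.9, 21.9 and 22.6 CPM in KO clone 2, against 22.2, 19.3 and 19.4 CPM in WT. The KO clone 1 libraries were below all others. Against WT the difference was -0.23 in KO clone 1 (adjusted p = 0.0173). SNHG25 was near 1 CPM, with 0.915, 1.49 and 0.767 CPM in KO clone 1 and 1.41, 1.49 and 1.94 CPM in KO clone 2, against 1.83, 1.73 and 1.36 CPM in WT. Its -0.63 in KO clone 1 had an adjusted p of 0.0303, and of 0.101 without KO clone 1 replicate 1. SNHG20, host of SCARNA16, was the member that fell in KO clone 2. It had 10.2, 10.2 and 11.3 CPM in KO clone 1 and 8.82, 10.4 and 9.98 CPM in KO clone 2, against 11.7, 12.2 and 10.9 CPM in WT. Its log2 fold change was -0.26 in KO clone 2 (adjusted p = 0.0195) and -0.13 in KO clone 1 (adjusted p = 0.273). The clones differed by -0.13 (adjusted p = 0.326), and DESeq2 did not call the fall in KO clone 2.

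Of the 30 members, 11 passed the adjusted p in no contrast with WT: SNHG12, SNHG31, SNHG8, SNHG27, EPB41L4A-AS1, SNHG10, SNHG21, SNHG9, SNHG19, SNHG30 and SNHG22. SNHG8, host of SNORA24, was the one with the most counts. It had 63.8, 67.6 and 64.2 CPM in KO clone 1 and 62.3, 64.5 and 70.0 CPM in KO clone 2, against 61.7, 65.7 and 65.8 CPM in WT. The groups overlapped, with a log2 fold change of 0.02 in the mean of the clones (adjusted p = 0.698). EPB41L4A-AS1 had 0.09 (adjusted p = 0.294) and SNHG10, host of SCARNA13, had 0.01 (adjusted p = 0.962). In 8 members the mean level was under 5 CPM, and 2 of them, SNHG25 and SNHG11, passed in any contrast with WT. At the lowest, SNHG22 had 3 to 13 read pairs per library, so only large differences could have been detected there.

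Between the knockouts, 11 members were higher in KO clone 2 than in KO clone 1 and none was lower. Over all genes, 13.4% were higher and 12.6% lower. At an unadjusted p under 0.05, 13 members were higher and 1 was lower, and the median log2 difference of the 30 was 0.12, against -0.0003 over all genes. Of the 3885 long non-coding genes, 146 were higher and 429 lower. Without KO clone 1 replicate 1 the count was 7, and SNHG12 (adjusted p = 0.0831), SNHG5 (0.107), SNHG26 (0.168) and SNHG25 (0.15) no longer passed.

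The 7 that passed both ways were SNHG3, SNHG32, TAF1D, SNHG1, SNHG16, SNHG17 and ZFAS1. For SNHG3, KO clone 2 averaged 285 ± 3.46 CPM and KO clone 1 239 ± 8.01 CPM, a log2 difference of 0.25 (SE 0.0357, adjusted p = 3.92e-07). For SNHG32 the means were 21.1 ± 1.96 CPM in KO clone 2 and 17.4 ± 1.51 CPM in KO clone 1, a difference of 0.28 (SE 0.0754, adjusted p = 0.00377). ZFAS1 averaged 52.1 ± 1.65 CPM in KO clone 2 and 45.9 ± 2.08 CPM in KO clone 1, a difference of 0.18 (SE 0.0452, adjusted p = 0.00202). SNHG1, SNHG16 and TAF1D differed by 0.14, 0.14 and 0.13. SNHG12, which hosts SNORD99, SNORA61, SNORA44 and SNORA16A, averaged 21.2 ± 0.261 CPM in KO clone 2 and 18.5 ± 0.446 CPM in KO clone 1 (0.19, SE 0.0649, adjusted p = 0.0235). DANCR, GAS5, SNHG7, SNHG15 and SNHG4 did not differ past the threshold between the clones, with differences from -0.05 to 0.06.

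**Figure D4:**
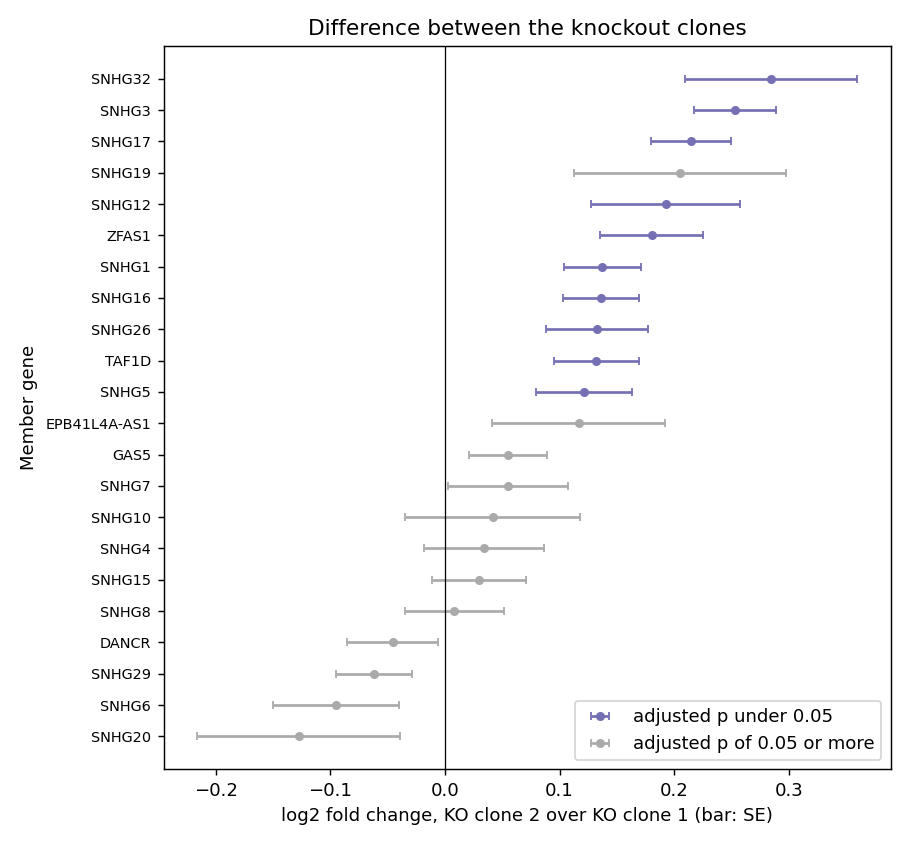
log2 difference of KO clone 2 over KO clone 1 for the 22 members at 5 CPM or more, with its SE. The 10 coloured points pass the adjusted p and all lie right of 0, from 0.12 (SNHG5) to 0.28 (SNHG32); SNHG25, near 1 CPM, is not drawn.

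The count files hold 1 counting without regard to strand (column 2) and 1 for each strand, of which column 4 held 92.03% to 92.31% of stranded counts and was used for all values above. Many members overlap a gene on the other strand, where column 2 discards a read pair as ambiguous. Exons of 17 of the 30 did so. In 12 members column 2 held under 0.95 times the counts of column 4, and 11 of those 12 had such an overlap. The largest losses were in SNHG16 (ratio 0.4032, with 1648 exon bases shared with an unnamed gene), SNHG29 (0.4557, 500 bases shared with LRRC75A), EPB41L4A-AS1 (0.509, 2200 bases shared with EPB41L4A), SNHG6 (0.6298, MCMDC2) and SNHG10 (0.6304, GLRX5). Of the 13 members without an overlap, 12 had a ratio within 0.05 of 1. In 29 of the 30, over 95% of stranded counts lay in column 4. The exception was SNHG7, with 85.12%. DIPK1B, which shares 1482 exon bases with it on the other strand, averaged 20.3 CPM in KO clone 1 and 4.88 CPM in KO clone 2, against 7.10 CPM in WT, and its part in the column 2 counts of SNHG7 was not tested.

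For most members fold changes moved little with the counting. The largest shift of a member's log2 fold change in the mean of the clones was 0.065 and the median shift 0.0066. That largest shift was in EPB41L4A-AS1, with 0.09 in column 4 and 0.03 in column 2. In KO clone 1 this gene had 0.04 in column 4 and -0.06 in column 2. In column 2, SNHG29 (0.07, adjusted p = 0.338) and SNHG16 (-0.08, adjusted p = 0.0614) no longer passed in the mean of the clones, and no member was gained in any contrast. In KO clone 1 against WT, SNHG29, SNHG6 (adjusted p = 0.254) and SNHG25 (0.0534) did not pass in column 2, while SNHG16 did (-0.16, adjusted p = 0.000689). Between the clones SNHG25 did not pass (0.12). In column 2, 13.5% of genes rose and 16.7% fell in the mean of the clones. The 7 members that rose in both clones passed in either counting.

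**Figure D5:**
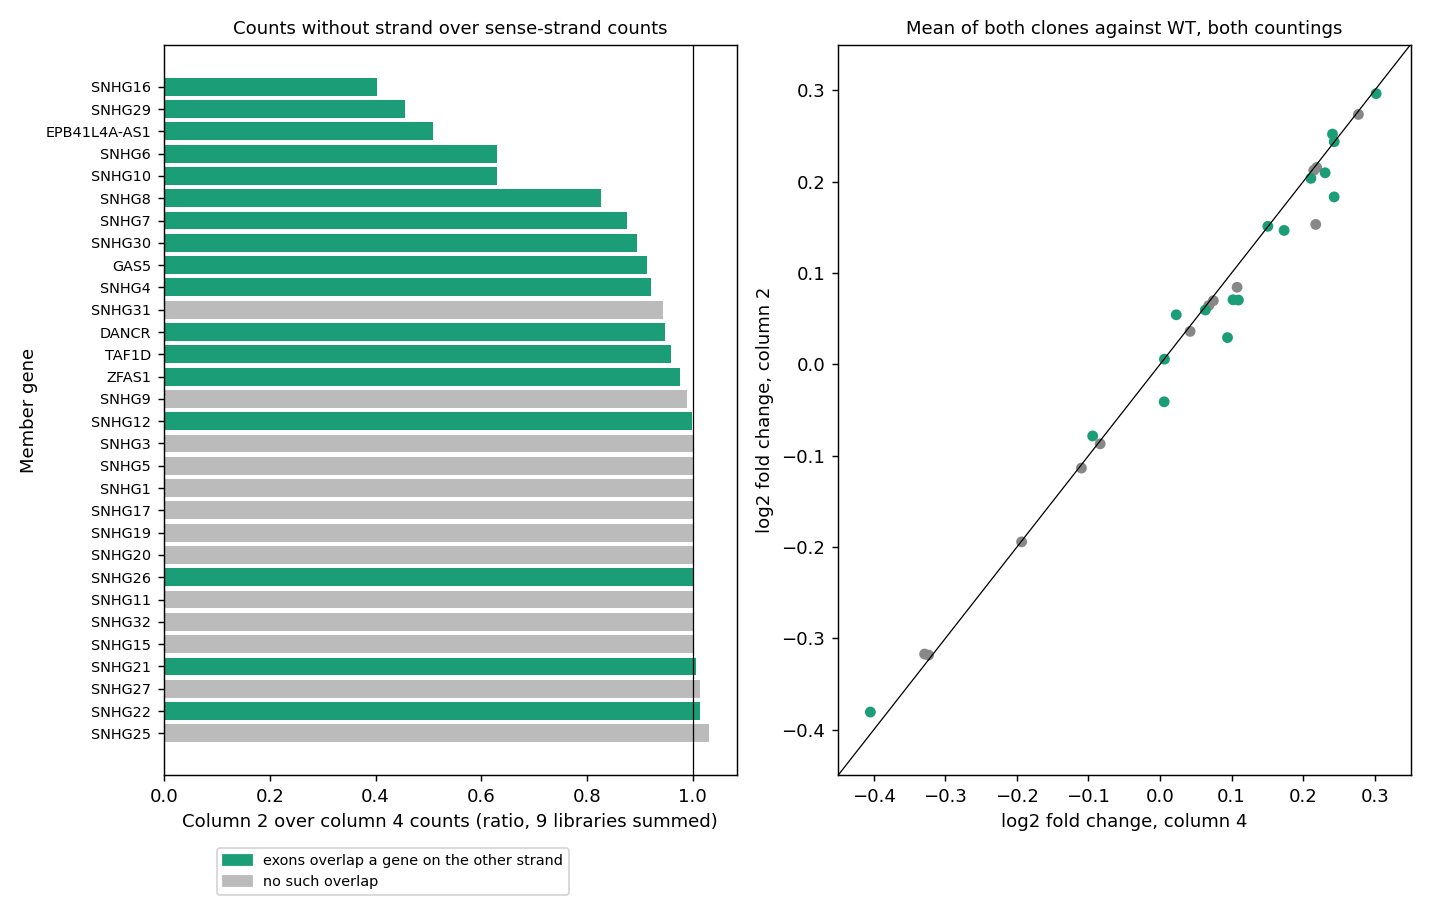
Left, counts in column 2 over counts in column 4 for 30 members, 9 libraries summed, with members whose exons overlap a gene on the other strand in green. Right, log2 fold change of the mean of both clones over WT in column 4 and column 2, with the line of equality. Ratios fall to 0.4032 (SNHG16), while the fold changes stay within 0.065 of each other.

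SNHG28 was where the strand decided the value. In the authors' deposited table, made from column 2, SNHG28 has a log2 fold change of -2.89 with an adjusted p of 0.00234. Of its read pairs in column 2, KO clone 1 had 2, 5 and 4, KO clone 2 had 0, 1 and 0, and WT had 9, 18 and 21. Column 4, its own strand, held 3 pairs in all 9 libraries together, and the opposite strand held 57. On its own strand, 5133 of its 5656 exon bases are shared with another gene, where a pair counts for neither, so these 3 pairs do not measure its level. SLAMF8, a gene on that opposite strand that shares 1099 exon bases with SNHG28, averaged 2.29 CPM in KO clone 1 and 4.31 CPM in KO clone 2, against 15.0 CPM in WT (log2 fold change -2.25 in the mean of the clones). An unnamed gene on the same strand as SLAMF8 shares 99 exon bases with SNHG28 and had -4.18. Column 2 discards pairs on exon bases shared across strands, and which gene the 57 pairs came from was not tested. SNHG18 had no read pair in column 4, and in the authors' deposited table its log2 fold change of 1.53 carries no adjusted p.

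Of the snoRNAs themselves little was counted. GENCODE release 44 places 69 snoRNA and scaRNA genes in 31 members, all but GAS5. Some, such as SNORA16A and SNORA17B, are entered more than once at nearly the same place, and each entry is counted. Of the 69, 51 lie wholly inside an annotated host exon, the gene models including transcripts with retained introns, and 50 of the 51 had 0 counts in all 9 libraries. By these gene models a pair on such a snoRNA also overlaps its host, so these zeros do not measure its level. The exception was SNORA13, in an exon of EPB41L4A-AS1, with 332 counts, and the reason was not tested. Of the 15 wholly in introns, 12 had counts. In all, 10 snoRNA genes passed the filter and none passed the adjusted p in any contrast. Their SEs in the mean of the clones ran from 0.104 (SNORA71B) to 0.299 (SNORD99). Changes as small as those of most members could therefore have been missed. SNORA73B, whose sequence is given above, had the most. It had 96.5, 116 and 82.2 CPM in KO clone 1 and 92.3, 98.3 and 103 CPM in KO clone 2, against 86.4, 79.8 and 99.7 CPM in WT. The groups overlapped (log2 fold change 0.15 in the mean of the clones, adjusted p = 0.44). In KO clone 2 SNORA73B had 0.14 (SE 0.141, adjusted p = 0.532), and its host SNHG3 had 0.20 (SE 0.0356). SNORA71B, in SNHG17, averaged 5.00 CPM in KO clone 1, 5.78 CPM in KO clone 2 and 5.17 CPM in WT. SNORD93, in SNHG26, averaged 1.39, 1.70 and 1.24 CPM in the same order (0.31, adjusted p = 0.272). SNORD12C stayed under 1 CPM in the mean of every group. Whether the libraries kept RNAs as short as these is not given in the labels, and the part of unspliced host RNA in these counts was not tested.

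Genes that act on snoRNAs and on their hosts were described from 6 lists. Of the 4 box H/ACA core proteins, 3 rose and 1 fell in the mean of the clones, with a median log2 fold change of 0.16. NHP2, one of them, averaged 59.2 CPM in KO clone 1 and 66.3 CPM in KO clone 2, against 45.1 CPM in WT, a log2 fold change of 0.47 (adjusted p = 5.56e-14) that was larger than that of any member tested. DKC1, the pseudouridine synthase, rose by 0.13 (adjusted p = 8.59e-05), GAR1 rose by 0.18 (adjusted p = 0.00606), and NOP10 fell by 0.11 (adjusted p = 0.0362). By clone, GAR1 passed in KO clone 2 (0.23) and not in KO clone 1 (0.14, adjusted p = 0.0837). NOP10 passed in KO clone 1 (-0.18) and not in KO clone 2 (-0.05, adjusted p = 0.551). Of the 4 box C/D core proteins, NOP58 rose by 0.12 (adjusted p = 0.000808) and NOP56 fell by 0.11 (adjusted p = 0.00119). NOP58 passed in KO clone 2 (0.19) and not in KO clone 1 (0.05, adjusted p = 0.262). NOP56 passed in KO clone 1 (-0.24) and not in KO clone 2 (0.03, adjusted p = 0.509). The methyltransferase FBL had 0.01 and SNU13, the protein that binds the C/D motif first, had 0.03. Between the clones, 3 of these 4 were higher in KO clone 2, NOP56 by 0.27 (adjusted p = 2.42e-09).

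Of 10 snoRNP assembly factors, 2 rose and none fell in the mean of the clones, with a median of 0.04: RUVBL2 (0.08, adjusted p = 0.0289), a subunit of the R2TP chaperone complex, and NOPCHAP1 (0.08, adjusted p = 0.0437). In KO clone 1 alone RUVBL2 had -0.01 and NOPCHAP1 -0.03, and in KO clone 2 both had 0.18. KO clone 2 was higher than KO clone 1 in both (adjusted p = 4.71e-05 for RUVBL2 and 8.44e-06 for NOPCHAP1). By unadjusted p also 2 rose and none fell. Of 6 factors of snoRNA release and trimming, 3 rose and 1 fell, among them PARN, a 3′ end deadenylase, by 0.17 (adjusted p = 0.000228). PARN rose in KO clone 1 (0.33, adjusted p = 2e-08) and did not pass in KO clone 2 (0.01, adjusted p = 0.896). It was lower in KO clone 2 than in KO clone 1 by a log2 difference of -0.32. The 5′ exonuclease XRN1 fell by 0.12 (adjusted p = 0.00115). Of 15 genes of nonsense-mediated decay and the exon junction complex, 6 rose and 1 fell, with a median of 0.07. SMG6, the endonuclease of that pathway, fell by 0.23 (adjusted p = 8.55e-07), and SMG9, a partner of the kinase SMG1, rose by 0.19 (adjusted p = 5.92e-05). UPF1, its central helicase, had 0.07 (adjusted p = 0.0614). Of 10 regulators of TOP RNAs, 3 rose and 1 fell. LARP1, which binds the capped TOP tract, had 0.03 (adjusted p = 0.578).

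Other genes with a snoRNA gene in their span on the same strand were set beside the members. Of 222 protein-coding hosts tested, 65 rose and 41 fell in the mean of the clones, against 16.4% and 18.9% of all genes. Their median log2 fold change was 0.04. With the fold minimum, 4 rose and 6 fell, against 6.53% of all genes in either direction. Between the clones, 59 of the 222 were higher and 26 lower in KO clone 2, against 13.4% and 12.6% of all genes. PPP1R13B, which encodes a p53-binding protein, averaged 80.7 CPM in KO clone 1 and 95.1 CPM in KO clone 2, against 28.7 CPM in WT. PTPRM, a receptor tyrosine phosphatase, averaged 27.2 CPM in KO clone 1 and 12.3 CPM in KO clone 2, against 60.0 CPM in WT. Of 25 tested hosts that are not protein-coding, 1 rose and 3 fell, with a median of 0.05. Among them SNHG14, left out of the members, averaged 0.096 CPM in KO clone 1 and 0.122 CPM in KO clone 2, against 79.1 CPM in WT.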

How the data were processed

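Total RNA from 9 libraries of KG-1a cells was sequenced in pairs. Raw counts per gene were deposited by the authors, from STAR alignments to GRCh38 per the submitters' processing notes; versions are not given in the sources used here. The authors also deposited a DESeq2 table of base means (a signal scaled by size factors), log2 fold changes and p-values, whose raw counts equalled column 2 in all 9 libraries. From the deposited counts, column 4 was tested with edgeR 4.0.16 in R 4.3.3: filterByExpr, TMM scaling, and a quasi-likelihood F test on all 9 libraries with contrasts for each clone, their mean and their difference. A call was an adjusted p under 0.05, with or without an absolute log2 fold change of 1. CPM used TMM-scaled totals, and the SE is the absolute log2 fold change over the square root of F. A count of 0 allows up to 3 read pairs, or 0.07 to 0.107 CPM. How well the test recovers changes as small as those of most members was not tested. Annotation was GENCODE release 44, with 60463 of 60605 identifiers found, and 40591 had a symbol. The gene models used for counting may therefore differ from it in part, which also bears on the overlaps given above.

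Members, gene lists and tests were chosen with earlier results of these data known. Values in full were given for members past the threshold in both clones, members that differed most between the clones, the 5 with the most counts, the 5 with the lowest column 2 to column 4 ratio, and further members with a call. Replicate numbers were checked for pairing: deviations of same-numbered libraries correlated between -0.014 and 0.012, so no block was used. No 2 libraries agreed within sampling noise. On the same strand, exons of 10 of the 32 members overlap a gene other than a snoRNA gene, and exons of 24 hold a snoRNA or scaRNA gene wholly or in part. A pair that overlaps both genes counts for neither. Alternatives were column 2, DESeq2 1.42.0 and its size factors, no filter, fits of 2 groups, a replicate block, and each library left out.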

Additional observations from a re-analysis of the deposited data

Results flagged for a closer look

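The following 11 members differed between the knockout clones in a direct test of KO clone 2 against KO clone 1, edgeR adjusted p under 0.05. The log2 difference was 0.2532 for SNHG3, 0.1926 for SNHG12, 0.2847 for SNHG32, 0.121 for SNHG5, 0.1329 for SNHG26, 0.132 for TAF1D, 0.1374 for SNHG1, 0.136 for SNHG16, 0.6057 for SNHG25, 0.2146 for SNHG17 and 0.1804 for ZFAS1. All 11 were higher in KO clone 2. Without KO clone 1 replicate 1, SNHG12, SNHG5, SNHG26 and SNHG25 did not pass. For SNHG25 the difference was 0.4073 without KO clone 1 replicate 3 (adjusted p = 0.287) and 0.9487 without KO clone 1 replicate 2 (adjusted p = 0.00548).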

How the results depend on the processing

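The direction and call in the mean of the clones of DANCR, SNHG26, SNHG7, GAS5, SNHG17, SNHG15 and SNHG4 held under every alternative run, with adjusted p at most 0.00896 except for SNHG17 in fits of 2 groups (0.0205). The count of members that fell in the mean of the clones was 0 in fits of 2 groups, and 1 member was then lower in KO clone 2 than in KO clone 1. With DESeq2, 2 members fell in KO clone 1 and 0 in KO clone 2. With 1 library left out, 8 to 10 members rose and 3 to 4 fell in KO clone 1, 10 to 13 rose and 0 to 1 fell in KO clone 2, 9 to 11 rose and 1 to 3 fell in the mean of the clones, and 7 to 11 were higher in KO clone 2 than in KO clone 1. The fall count of 0 in KO clone 2 came without KO clone 2 replicate 1, WT replicate 1 or WT replicate 2; the 1 in the mean came without WT replicate 3. SNHG10 in the mean of the clones was -0.041 in column 2, and it ran from -0.0172 to 0.0327 and SNHG12 from -0.0398 to 0.0437 with 1 library left out. The cause was not tested. With a replicate block, SNHG3 (adjusted p = 0.041) and SNHG1 (0.0329) passed in the mean of the clones and SNHG25 (0.0515) no longer passed between the clones, and no count of members moved by over 1.5 times. ZFAS1 had an adjusted p of 0.0905 in fits of 2 groups. Low counts limit SNHG9, with a mean of 1.02 CPM over the libraries, and SNHG21, SNHG27 and SNHG22, each under 1 CPM.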
